A study of Mus musculus with 20 samples.

Results

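The 10 genes described here are targets of the transcriptional co-activator YAP and genes of matricellular or adhesive glycoproteins: Ctgf, Cyr61, Nov, Ankrd1, Amotl2, Lats2, Thbs1, Sparc, Tnc and Fn1. They were chosen by gene name from the 27827 gene names on the array, and all 10 were found, with 20 probes between them. The values come from kidneys of C57BL/6 mice (males, 8 to 12 weeks old per the methods), 4 arrays in each of 5 groups. Control mice had neither surgery nor treatment. IRI mice had both renal pedicles clamped for 45 min under anesthesia and were killed after 6 h of reperfusion. IRI+Hemin mice received 25 mg/kg hemin, an inducer of heme oxygenase 1, into the peritoneum 24 h before the same IRI. IPC+IRI mice had both pedicles clamped for 15 min, recovered for 7 days and then went through IRI. Hemin mice received 25 mg/kg hemin and no surgery. No group had surgery without the long clamp, so handling and anesthesia cannot be told apart from ischemia and reperfusion. Nor is any group described with the earlier surgery but no brief clamp, or with an injection without hemin. The time from hemin to death is not given for the Hemin group.

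YAP and its relative TAZ enter the nucleus when the kinases of the Hippo pathway are quiet, for instance when a cell is stretched or loses contact with its neighbours, and there act through the DNA-binding TEAD factors. Ctgf and Cyr61, secreted proteins of the CCN family, and Ankrd1, a nuclear ankyrin repeat protein, are their best known targets, while Amotl2, which holds YAP at cell junctions, and Lats2, the kinase that phosphorylates YAP, are targets that act back on the pathway. Matricellular proteins such as thrombospondin 1, SPARC and tenascin C sit in the matrix, signal through integrins and other receptors, and are made in quantity during repair and fibrosis.

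The sequences upstream of Cyr61, Ankrd1, Amotl2 and Lats2 are shown because they hold the letters GGAATG, the core of the motif that TEAD factors bind, read on both strands. RefSeq sequence on GRCm38.p6, from 250 bases before to 50 bases after each gene start, was given for 6 of the 10 genes. In the lines that follow, written on the gene's own strand, capitals mark each match. The windows shown end at the base before the gene start, except for Lats2, which runs on for 30 bases.
Cyr61: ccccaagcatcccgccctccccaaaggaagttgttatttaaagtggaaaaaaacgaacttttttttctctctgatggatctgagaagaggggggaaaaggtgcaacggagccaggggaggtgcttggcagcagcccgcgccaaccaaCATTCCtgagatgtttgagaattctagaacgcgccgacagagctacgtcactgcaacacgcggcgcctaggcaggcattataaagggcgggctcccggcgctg
Ankrd1: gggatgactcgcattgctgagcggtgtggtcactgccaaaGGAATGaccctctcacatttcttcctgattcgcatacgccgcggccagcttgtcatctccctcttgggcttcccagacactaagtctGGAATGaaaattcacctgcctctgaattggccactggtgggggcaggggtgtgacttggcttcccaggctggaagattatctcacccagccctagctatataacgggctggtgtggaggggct
Amotl2: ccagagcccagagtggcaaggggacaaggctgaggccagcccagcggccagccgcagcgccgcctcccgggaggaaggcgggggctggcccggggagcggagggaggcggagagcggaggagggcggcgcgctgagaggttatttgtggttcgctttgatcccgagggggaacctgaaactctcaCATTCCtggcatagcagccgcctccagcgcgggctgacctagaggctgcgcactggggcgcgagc
Lats2: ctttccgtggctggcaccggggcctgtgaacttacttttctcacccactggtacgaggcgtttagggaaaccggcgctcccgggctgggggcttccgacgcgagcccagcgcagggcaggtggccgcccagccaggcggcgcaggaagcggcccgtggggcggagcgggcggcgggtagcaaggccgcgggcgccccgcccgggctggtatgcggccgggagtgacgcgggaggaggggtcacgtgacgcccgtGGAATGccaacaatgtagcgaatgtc

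These stretches are chr3:145649986-145650235 on the minus strand for Cyr61, chr19:36119845-36120094 on the minus strand for Ankrd1, chr9:102717554-102717803 on the plus strand for Amotl2 and chr14:57746094-57746373 on the minus strand for Lats2. Ankrd1 has 2 matches, which begin at positions -210 and -123 from the gene start. The match of Cyr61 begins at -103 and that of Amotl2 at -65, both on the opposite strand, and that of Lats2 begins at base 5 of the transcript. The other listed start of Lats2 and the windows of Sparc and Tnc held no match, and none of the windows given for these 6 genes held TGANTCA, the AP-1 motif, or a CArG box, the motif of serum response factor (SRF). Of 32851 promoter windows of 300 bases, 14.7% held GGAATG, 1.36% held it 2 or more times, 7.81% held TGANTCA and 1.63% a CArG box. A match describes letters in the window and says nothing of binding in these kidneys.

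Each value is a log2 expression, in which 0 is the 75th percentile of the probes of that array, and a unit is a doubling. The 75th percentile itself lay between 147 and 358 intensity units, and between 56.8% and 67.3% of the probes of an array were well above background, a flag of the scanner software. Of the 10 genes, 9 were well above background on all 20 arrays. The exception was Nov, so 9 genes were tested in each comparison. A change was called at an adjusted p below 0.05 (limma, 5 group means, Benjamini-Hochberg over all genes tested), and errors of fold changes are standard errors (SE). Each group was hybridised on its own slide, and a slide effect cannot be told apart from a group effect in any comparison. Control and IRI were scanned on 1 day, IPC+IRI and Hemin on another, and IRI+Hemin on a day of its own, so every other comparison also crosses scan days. The labels name the samples of a group as replicates without saying that each came from its own mouse, and the p-values measure the spread between these samples. In whole kidney, fewer cells of a type and less RNA per cell cannot be told apart.

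In IRI vs Control, 6 of the 9 tested genes were higher and 0 were lower. Of all genes tested in this comparison, 17% were higher and 33.7% lower. The genes that rose were Ctgf, Cyr61, Ankrd1, Amotl2, Thbs1 and Tnc, between 1.80-fold (Amotl2) and 8.87-fold (Cyr61). For each of them the 4 IRI arrays lay above the 4 Control arrays. The share of all genes whose arrays separate in this way was not computed for any comparison. Lats2, Sparc and Fn1 did not pass, with log2 fold changes of 0.12, 0.15 and 0.15. The median over the 9 genes was 1.78, against -0.17 over all 17719 genes tested.

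Some of these genes were lower than in IRI after each of the 2 preconditioning maneuvers, the brief clamp and hemin. In IPC+IRI vs IRI, 5 genes were lower (Ctgf, Amotl2, Lats2, Thbs1 and Tnc) and 0 higher, where 17.7% of all genes tested were lower and 26% higher. In IRI+Hemin vs IRI, 4 were lower (Amotl2, Thbs1, Tnc and Fn1) and 0 higher, where 18% of all genes were lower and 26.1% higher. Both comparisons use the same 4 IRI arrays. Amotl2, Thbs1 and Tnc were lower in each of them, whereas Cyr61 and Ankrd1 did not pass in either. The medians over the 9 genes were -0.82 and -0.33, and those over all genes tested were 0.09 and 0.08.

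**Figure D1:**
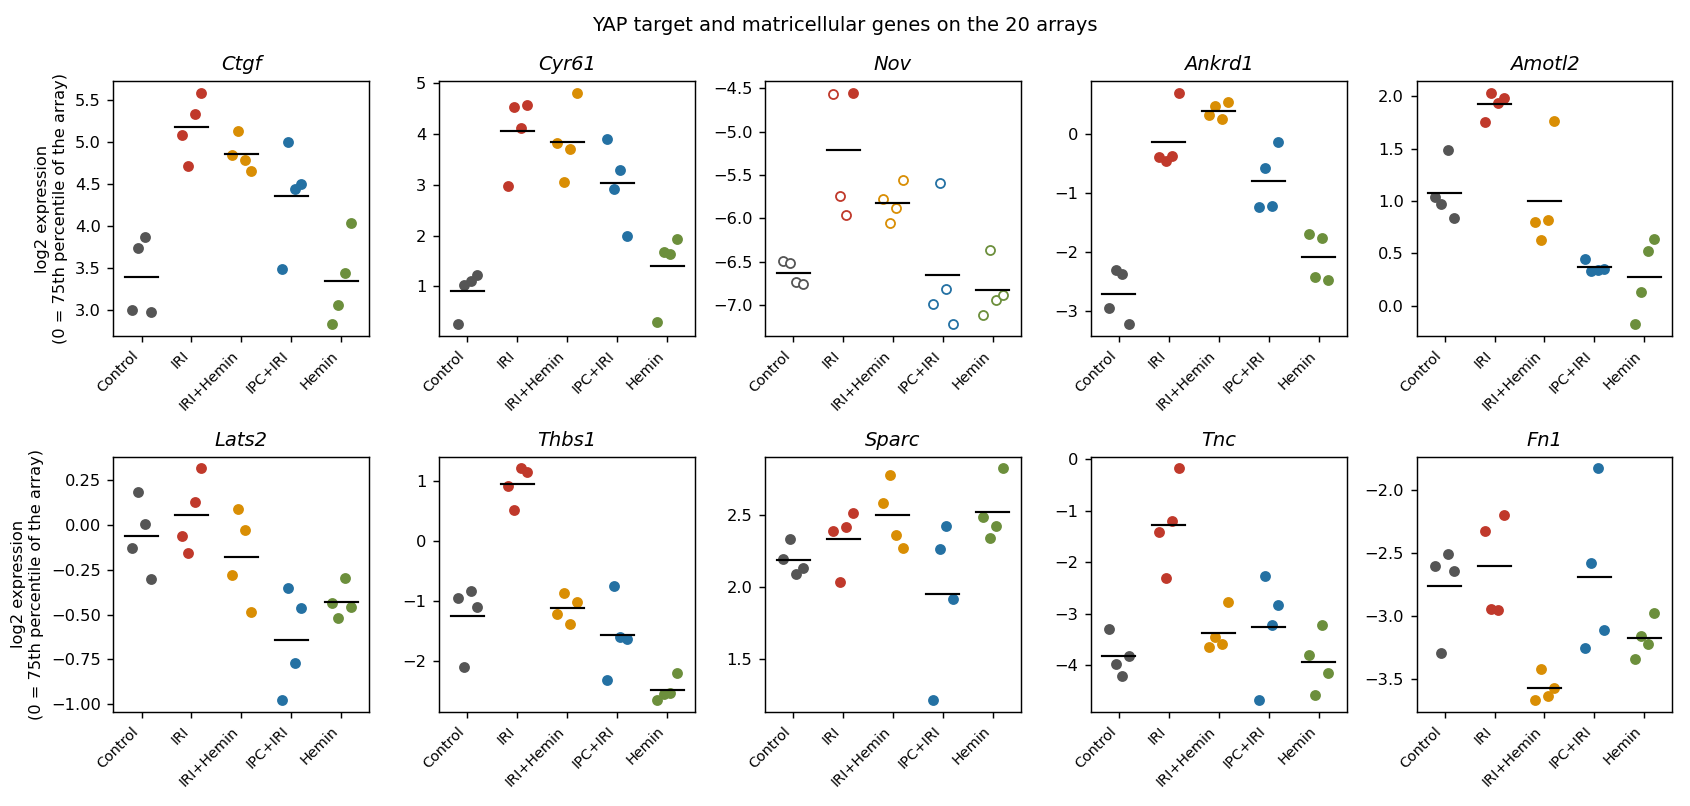
Log2 expression (vertical axis, 0 is the 75th percentile of the array; each panel has its own range) of the 10 genes on the 20 arrays, by group. Points are arrays, horizontal lines are means of 4, and open points were not well above background. Ctgf, Cyr61 and Ankrd1 lie high in the 3 groups with IRI, Thbs1 lies highest in IRI alone, and Nov has 1 filled point.

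Among the CCN genes, Ctgf (connective tissue growth factor, CCN2), a profibrotic matrix signal, was at 3.00, 3.75, 3.87 and 2.98 on the Control arrays and at 5.09, 4.72, 5.34 and 5.59 on the IRI arrays. In IRI+Hemin it was at 4.85, 5.13, 4.79 and 4.67, in IPC+IRI at 3.5, 5.0, 4.45 and 4.5, and in Hemin at 2.84, 3.07, 3.45 and 4.05. All arrays of IRI and IRI+Hemin were above all those of Control and Hemin, while replicate 1 of IPC+IRI lay within the Control range. Ctgf rose 3.44-fold in IRI vs Control (log2 1.78 ± 0.31 SE, adjusted p = 1.34e-04) and 2.84-fold in IRI+Hemin vs Hemin (log2 1.51 ± 0.31, adjusted p = 8.35e-04). In IPC+IRI it was higher than in Control (log2 0.96 ± 0.31, adjusted p = 0.0132) and lower than in IRI (log2 -0.82 ± 0.31, adjusted p = 0.0384), with arrays that overlapped on both sides. The call against Control was lost without IPC+IRI replicate 2 (log2 0.75, adjusted p = 0.0540), with quantile normalization (adjusted p = 0.0586) and with an ordinary t-test (adjusted p = 0.0909). The call against IRI was kept under 9 of 21 other settings, and it was lost when any array of the compared groups but replicate 2 of each was left out, with the smallest value without IPC+IRI replicate 1 (log2 -0.53, adjusted p = 0.147).

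Cyr61 (CCN1), an integrin ligand that cells release soon after stretch or injury, had the largest rise of the 9 tested genes in IRI vs Control. It was at 0.25, 1.04, 1.10 and 1.23 in Control, at 2.98, 4.54, 4.12 and 4.58 in IRI, and at 0.31, 1.68, 1.64 and 1.94 in Hemin. In IRI+Hemin it was at 3.83, 3.05, 3.71 and 4.82, and in IPC+IRI at 3.91, 2.92, 3.30 and 1.99. Every array of the 3 groups with IRI was thus above every array of the 2 groups without, although the lowest IPC+IRI array and the highest Hemin array nearly met. The change was 8.87-fold in IRI vs Control (log2 3.15 ± 0.46, adjusted p = 2.71e-05), 5.50-fold in IRI+Hemin vs Hemin (log2 2.46 ± 0.46, adjusted p = 4.07e-04) and 4.37-fold in IPC+IRI vs Control (log2 2.13 ± 0.46, adjusted p = 8.25e-04). The differences from IRI did not pass, at log2 -1.02 ± 0.46 in IPC+IRI (adjusted p = 0.0804) and -0.20 ± 0.46 in IRI+Hemin (adjusted p = 0.752). The former passed without IRI replicate 1 (adjusted p = 0.0245) or without IPC+IRI replicate 1 (adjusted p = 0.0363).

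Nov (CCN3), the third CCN gene and one that often opposes Ctgf, was well above background on 1 of 20 arrays, an IRI array, and entered no test. Its measured means were -6.63 in Control and -5.21 in IRI. Since 1 of 4 IRI arrays and 0 arrays of the other groups measured it, no fold is given.

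Of the YAP targets outside the CCN family, Ankrd1 was at -2.95, -2.30, -2.37 and -3.23 in Control and at -0.39, -0.45, -0.36 and 0.71 in IRI. It was at 0.33, 0.48, 0.27 and 0.55 in IRI+Hemin, at -1.24, -0.58, -1.23 and -0.13 in IPC+IRI and at -1.69, -2.42, -1.76 and -2.48 in Hemin. As with Cyr61, all arrays of the groups with IRI were above all arrays of the groups without. Ankrd1 rose 6.02-fold in IRI vs Control (log2 2.59 ± 0.30, adjusted p = 2.25e-06), 5.63-fold in IRI+Hemin vs Hemin (log2 2.49 ± 0.30, adjusted p = 6.11e-06) and 3.78-fold in IPC+IRI vs Control (log2 1.92 ± 0.30, adjusted p = 4.02e-05). With normexp background correction the rise in IRI vs Control was log2 1.47 and that in IPC+IRI vs Control 0.93, both past the threshold. Neither difference from IRI passed: it was log2 0.53 ± 0.30 in IRI+Hemin (adjusted p = 0.158) and -0.67 ± 0.30 in IPC+IRI (adjusted p = 0.0751). Single arrays decided both, since the first passed without IRI replicate 4 (log2 0.81, adjusted p = 0.0273) and the second without IPC+IRI replicate 4 (log2 -0.89, adjusted p = 0.0246).

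Amotl2, the angiomotin-like scaffold, had another pattern. It was at 1.04, 0.97, 1.48 and 0.84 in Control, at 1.75, 2.03, 1.94 and 1.98 in IRI, and at 0.80, 0.63, 0.82 and 1.76 in IRI+Hemin. The IPC+IRI arrays were close together at 0.44, 0.34, 0.34 and 0.35, and the Hemin arrays were at -0.18, 0.13, 0.52 and 0.64. The IRI arrays were above those of Control, IPC+IRI and Hemin, and overlapped IRI+Hemin by replicate 4 of that group alone, while all arrays of IPC+IRI and Hemin were below all those of Control. Amotl2 rose 1.80-fold in IRI vs Control (log2 0.85 ± 0.22, adjusted p = 0.00334), and was lower than in IRI by log2 -1.56 ± 0.22 in IPC+IRI (adjusted p = 3.75e-05) and by -0.92 ± 0.22 in IRI+Hemin (adjusted p = 0.00232). It was also below Control in IPC+IRI (log2 -0.71 ± 0.22, adjusted p = 0.00925) and in Hemin without surgery (log2 -0.80 ± 0.22, adjusted p = 0.00801), and both of these calls were lost without normalization between arrays, as was that of IRI+Hemin vs IRI (log2 -0.56, adjusted p = 0.0739).

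Lats2 did not pass in IRI vs Control (adjusted p = 0.565). It was at -0.13, 0.19, 0.01 and -0.30 in Control, at -0.06, -0.16, 0.13 and 0.32 in IRI, and at -0.98, -0.35, -0.77 and -0.46 in IPC+IRI. All IPC+IRI arrays were below all those of Control and IRI. The difference was log2 -0.70 ± 0.16 from IRI (adjusted p = 0.00186) and -0.58 ± 0.16 from Control (adjusted p = 0.00452), and both calls were lost without normalization between arrays, at log2 -0.38 and -0.14. In IRI+Hemin it lay between -0.48 and 0.09, and in Hemin between -0.52 and -0.30, and neither IRI+Hemin vs IRI nor Hemin vs Control passed (adjusted p = 0.243 and 0.0758). The latter passed as lower in 4 of 21 other settings, with adjusted p between 0.0339 and 0.0496.

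**Figure D2:**
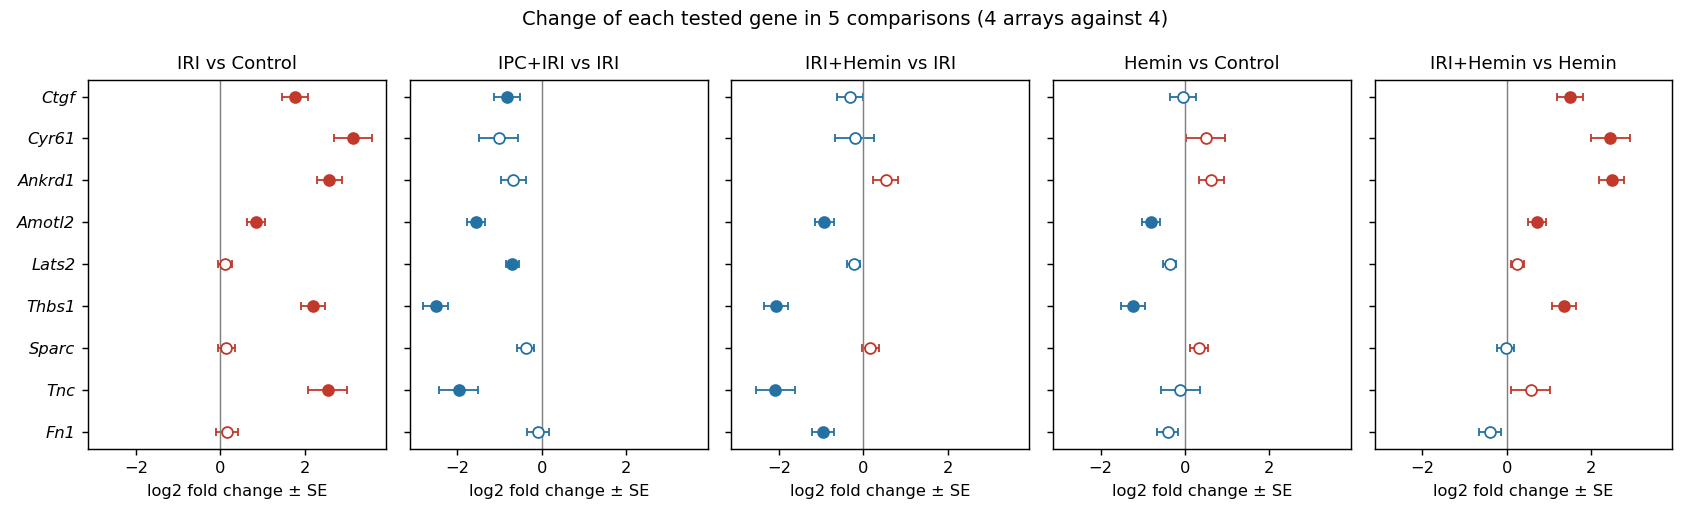
Log2 fold change (horizontal axis) of the 9 tested genes in 5 comparisons of 4 arrays with 4. Error bars are SE, filled points passed an adjusted p of 0.05, and red and blue mark values above and below 0. Ctgf, Cyr61 and Ankrd1 rose in IRI vs Control and in IRI+Hemin vs Hemin, and Amotl2, Thbs1 and Tnc were lower than IRI under either maneuver.

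Among the other matricellular genes, Thbs1 (thrombospondin 1, an activator of latent TGF-beta and an inhibitor of angiogenesis) separated IRI from every other group. It was at 0.92, 0.52, 1.22 and 1.15 in IRI, and at -0.95, -2.09, -0.83 and -1.09 in Control. In IRI+Hemin it was at -1.21, -0.86, -1.38 and -1.01, in IPC+IRI at -2.31, -0.74, -1.59 and -1.63, and in Hemin at -2.65, -2.55, -2.53 and -2.19. The 4 IRI arrays were above the other 16, and the ranges of Control, IRI+Hemin and IPC+IRI overlapped. Thbs1 rose 4.58-fold in IRI vs Control (log2 2.19 ± 0.29, adjusted p = 9.07e-06), and it was lower than in IRI by log2 -2.52 ± 0.29 in IPC+IRI (adjusted p = 9.64e-06) and by -2.07 ± 0.29 in IRI+Hemin (adjusted p = 3.82e-05). These 3 calls were kept under all 21 other settings. In IPC+IRI vs Control it did not pass (log2 -0.33 ± 0.29, adjusted p = 0.352).

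In Hemin, without surgery, Thbs1 was 2.36-fold lower than in Control (log2 -1.24 ± 0.29, adjusted p = 0.00331), with no overlap of the arrays. The call was lost without normalization between arrays (log2 -0.67, adjusted p = 0.141) and with the mean of log2 values over probes (log2 -0.74, adjusted p = 0.0983). From that lower level it rose 2.57-fold in IRI+Hemin vs Hemin (log2 1.36 ± 0.29, adjusted p = 0.00110), a value of 0.78 with normexp. The difference between this rise and that of IRI vs Control, the interaction of hemin and IRI, was log2 -0.83 ± 0.41 and did not pass (adjusted p = 0.239).

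Tnc (tenascin C), a matrix glycoprotein that is scarce in adult tissue and appears at sites of injury, was at -3.29, -3.98, -4.20 and -3.82 in Control and at -1.43, -2.31, -1.19 and -0.18 in IRI. It was at -3.64, -3.46, -3.60 and -2.78 in IRI+Hemin, at -4.68, -2.28, -3.22 and -2.84 in IPC+IRI and at -3.81, -4.57, -3.22 and -4.14 in Hemin. The IRI arrays were above those of Control, IRI+Hemin and Hemin, and met IPC+IRI at their lowest array. Tnc rose 5.84-fold in IRI vs Control (log2 2.55 ± 0.46, adjusted p = 2.00e-04), and it was lower than in IRI by log2 -2.09 ± 0.46 in IRI+Hemin (adjusted p = 0.00149) and by -1.97 ± 0.46 in IPC+IRI (adjusted p = 0.00234). These sizes depend on the processing. With normexp background correction Tnc was at log2 1.18 in IRI vs Control, -1.34 in IRI+Hemin vs IRI and -1.13 in IPC+IRI vs IRI, and when probes were averaged after taking log2 the differences from IRI were -1.10 and -0.98. All of these still passed, while an ordinary t-test lost the call in IPC+IRI vs IRI (adjusted p = 0.0695). In IRI+Hemin vs Hemin the value was log2 0.57 ± 0.46 (adjusted p = 0.331). The interaction was log2 -1.98 ± 0.65 (adjusted p = 0.0703), the closest to the threshold of the 9 genes, and it passed without IRI replicate 2 (log2 -2.32, adjusted p = 0.0345) and in a fit of the compared arrays alone (adjusted p = 0.0368).

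Sparc (osteonectin), a collagen-binding protein, had overlapping arrays in IRI and in Control. They lay between 2.09 and 2.34 in Control, 2.03 and 2.51 in IRI, 2.27 and 2.78 in IRI+Hemin, 1.22 and 2.42 in IPC+IRI and 2.34 and 2.82 in Hemin. It passed in 1 comparison, IPC+IRI vs Hemin (log2 -0.56 ± 0.20, adjusted p = 0.0374), a call kept under 9 of 21 other settings. Without IPC+IRI replicate 1, the lowest array, the value was -0.32 (adjusted p = 0.129). Against IRI it passed without IPC+IRI replicate 3 (log2 -0.54, adjusted p = 0.0430) and with the brightest probe alone (log2 -0.81, adjusted p = 0.00827). With that probe Sparc also passed as lower in IPC+IRI vs Control (log2 -0.57, adjusted p = 0.0418).

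Fn1 (fibronectin), the adhesive glycoprotein of plasma and matrix, was at -2.33, -2.94, -2.95 and -2.20 in IRI and at -3.66, -3.42, -3.63 and -3.57 in IRI+Hemin. All IRI+Hemin arrays were below all arrays of the other 4 groups, which lay between -3.34 and -1.83. The difference of IRI+Hemin from IRI was log2 -0.97 ± 0.26 (adjusted p = 0.00577), and it was lost without normalization between arrays (log2 -0.60, adjusted p = 0.188) and in the deposited log2 matrix (log2 -0.31, adjusted p = 0.625). Fn1 did not pass in IRI vs Control, IPC+IRI vs IRI or Hemin vs Control (adjusted p = 0.644, 0.809 and 0.220). It did not pass in IRI+Hemin vs Hemin either (log2 -0.40, adjusted p = 0.219), but it passed as lower in 3 of 21 other settings, with adjusted p between 0.0157 and 0.0181.

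In the comparison of IPC+IRI vs Control, 3 genes were higher (Ctgf, Cyr61 and Ankrd1) and 2 lower (Amotl2 and Lats2), where 23.1% of all genes tested were higher and 32.6% lower. In Hemin vs Control, 0 were higher and 2 lower, where 18.4% of all genes were higher and 17.5% lower. Without normalization between arrays Cyr61, Ankrd1 and Sparc passed there as higher (log2 1.06, 1.19 and 0.90), on a scale on which the median of all genes was 0.62. Ankrd1 also passed there with quantile normalization (log2 0.80, adjusted p = 0.0446). In IRI+Hemin vs Hemin, 5 were higher (Ctgf, Cyr61, Ankrd1, Amotl2 and Thbs1) and 0 lower, where 16.4% were higher and 27.8% lower. The arrays of 1 of these 5, Amotl2, overlapped between the groups. Its call was lost without normalization (adjusted p = 0.0565), in a fit of the compared arrays alone (adjusted p = 0.0600) and with an ordinary t-test (adjusted p = 0.113). The value of Amotl2 fell from log2 0.73 to 0.47 without IRI+Hemin replicate 4. In IPC+IRI vs Hemin, the pair scanned on 1 day, 4 were higher (Ctgf, Cyr61, Ankrd1 and Thbs1) and 1, Sparc, was lower, where 13.1% were higher and 22.7% lower. Without IPC+IRI replicate 2, Ctgf and Thbs1 no longer passed in this comparison (adjusted p = 0.0643 and 0.0816), and Ctgf did not without Hemin replicate 1 (adjusted p = 0.0576). In the interaction 0 passed in either direction by limma, where 5.83% of all genes were above 0 and 1.95% below. An ordinary t-test also called 0 there.

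For 5 of the genes there is 1 probe each. These probes lie on mm9 at chr10:24318281-24318340 (Ctgf), chr3:145310187-145310246 (Cyr61), chr15:54584204-54584263 (Nov), chr19:36186809-36186868 (Ankrd1) and chr9:102635025-102635084 (Amotl2). The other 5 have 2 to 4 probes, and for several of these the probes did not move together. The 3 Thbs1 probes were lower by log2 -2.08, -1.77 and -2.59 in IPC+IRI vs IRI, each past the threshold. Of these, the probe at chr2:117946712-117946892 was well above background on 2 of 4 Control arrays. The other pair rose in IRI vs Control by log2 1.56 and 2.23 and was lower in Hemin vs Control by -1.16 and -1.34, where the former probe was not (adjusted p = 0.656).

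Of the 3 Tnc probes, 1 was never well above background. The probe at chr4:63620819-63620864 was well above background on all 20 arrays, and it fell by log2 2.25 in IPC+IRI vs IRI (adjusted p = 0.00161) and by 2.32 in IRI+Hemin vs IRI (adjusted p = 0.00124). The remaining one (chr4:63645878-63645937), designed to another transcript record, was well above background on 0 of 4 Control arrays, 3 of 4 IRI arrays and all arrays of IRI+Hemin and IPC+IRI. It differed from IRI by log2 -0.54 in IPC+IRI (adjusted p = 0.368) and -0.61 in IRI+Hemin (adjusted p = 0.306). The call of lower Tnc against IRI thus rests on 1 probe.

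The 3 Lats2 probes of 1 transcript record lay between log2 -0.63 and -0.88 in IPC+IRI vs IRI, each past the threshold, while the probe at chr14:58341239-58341298, designed to another record, was at -0.01. That probe was higher in IPC+IRI vs Control (log2 0.45, adjusted p = 0.0465), where the other 3 were lower, and in IRI+Hemin vs IRI 2 of the 3 were lower by log2 -0.67 and -0.46. The Sparc probe at chr11:55208013-55208072 was higher in Hemin vs Control (log2 0.84, adjusted p = 0.00504) and did not pass in IPC+IRI vs IRI (log2 0.11, adjusted p = 0.684). Its partner, which spans chr11:55209449-55212106, was at -0.18 in the first of these (adjusted p = 0.554) and lower in the second (log2 -0.81, adjusted p = 0.00773). The gene value of Sparc is an average over both. The Fn1 probe that is spotted 10 times on each array was lower in IRI+Hemin vs IRI (log2 -0.88, adjusted p = 0.0179). A further Fn1 probe was well above background on 2 of 4 IRI+Hemin arrays, so that the size of its difference is not given, and the remaining one was never well above background.

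**Figure D3:**
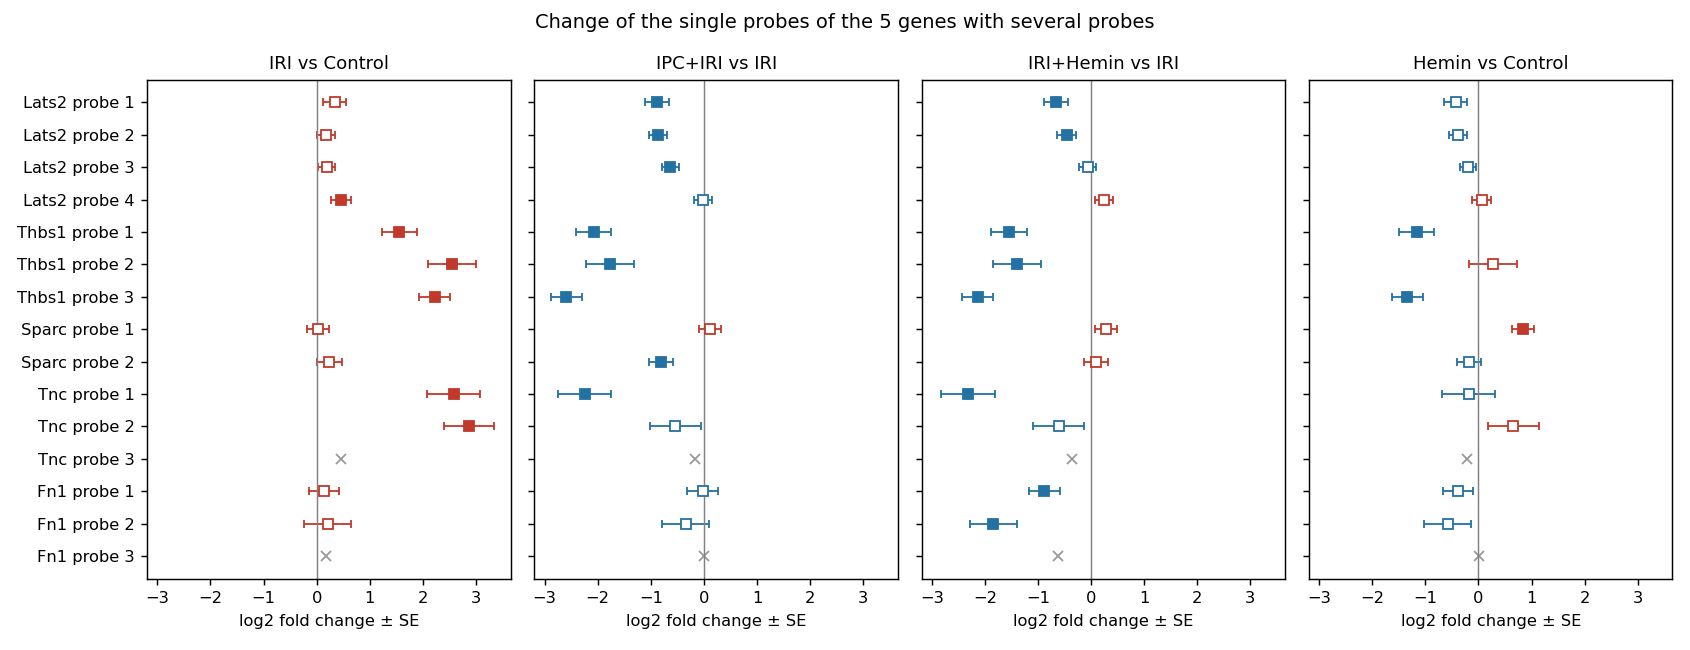
Log2 fold change with SE (horizontal axis) of each probe of the 5 genes with several probes, in 4 comparisons. Filled squares passed an adjusted p of 0.05, red and blue mark values above and below 0, and grey crosses are probes that were not well above background on any array. Probe 2 of Thbs1 was not well above background on 2 Control arrays and probe 2 of Fn1 on 2 IRI+Hemin arrays. Probe 2 of Tnc had no Control array above background, and it was at -0.54 and -0.61 against IRI where probe 1 was at -2.25 and -2.32.

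The other genes of the pathway were described as 6 lists, whose counts stand against the shares over all genes, 17% higher and 33.7% lower in IRI vs Control, 26% and 17.7% in IPC+IRI vs IRI and 26.1% and 18% in IRI+Hemin vs IRI. Of the Hippo kinases, their adaptors and the YAP cofactors, 25 of 27 were tested in IRI vs Control, and 4 were higher and 6 lower, with a median of log2 0.09, which is near or below the shares over all genes. Tead4, a DNA-binding partner of YAP, was well above background on 0 of 4 Control arrays and 4 of 4 IRI arrays. It stands among the 4 higher genes but entered the test through its IRI arrays alone, so no p-value is given. It was at least 4.21-fold higher in IRI. For this bound, each Control array took the higher of its own signal and the lowest signal well above background on it. Sav1, the scaffold of the Hippo kinases, rose by log2 1.59 ± 0.20 (adjusted p = 4.66e-06). Vgll4, which competes with YAP for TEAD, was lower (log2 -1.03 ± 0.18, adjusted p = 1.34e-04), as was Tead2 (adjusted p = 1.35e-04), which was well above background on 2 of 4 IRI arrays, so that its size is not given. Against IRI, in IPC+IRI 3 of 26 were higher and 5 lower (median log2 0.07). Among the higher was Vgll1 (at least 1.40-fold). It was well above background on 3 of 4 IPC+IRI and 0 of 4 IRI arrays, so no p-value is given. Tead3 fell most (log2 -1.19 ± 0.18, adjusted p = 6.87e-05). In IRI+Hemin vs IRI 5 of 25 were higher (median 0.10), with Wwc1, an upstream activator of the kinases, first (log2 1.02 ± 0.12, adjusted p = 9.03e-06), and 6 lower, with the kinase Lats1 first (log2 -1.28 ± 0.26, adjusted p = 8.67e-04).

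Of 25 other YAP target genes, all tested in IRI vs Control, 10 were higher and 4 lower, with a median of log2 0.32 against -0.17 over all genes. F3, the tissue factor that starts coagulation, rose by log2 3.36 ± 0.22 (adjusted p = 4.33e-09), from a mean of 0.37 in Control to 3.73 in IRI. Arhgef17, a guanine nucleotide exchange factor, was lower by log2 -0.96 ± 0.15 (adjusted p = 6.28e-05) and Rbms3, an RNA-binding protein, by -0.68 ± 0.27 (adjusted p = 0.0417). Compared with IRI, 6 were higher and 5 lower in IPC+IRI (median log2 0.11), and F3 had the largest fall (log2 -1.47 ± 0.22, adjusted p = 6.44e-05), while Gadd45b, a stress-induced regulator of growth arrest, was higher (log2 1.61 ± 0.29, adjusted p = 3.43e-04). In IRI+Hemin vs IRI (median 0.01) 5 were higher, Arhgef17 most (log2 0.78 ± 0.15, adjusted p = 6.35e-04), and 4 lower.

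Of 17 genes driven by SRF and its actin-sensing cofactors MRTF, 11 were higher and 0 lower in IRI vs Control, with a median of log2 0.54. Vinculin (Vcl), which links integrins to actin, rose most (log2 1.41 ± 0.18, adjusted p = 7.97e-06) and zyxin (Zyx) next (log2 1.28 ± 0.14, adjusted p = 1.30e-06). Compared with IRI, 1 was higher and 6 lower in IPC+IRI (median -0.21), while IRI+Hemin had 2 higher and 5 lower genes (median -0.17). Vcl had the largest fall in both, at log2 -1.46 ± 0.18 (adjusted p = 1.75e-05) and -0.98 ± 0.18 (adjusted p = 4.32e-04), and Actb, beta-actin, the largest rise, at log2 1.04 ± 0.22 (adjusted p = 0.00112) and 0.94 ± 0.22 (adjusted p = 0.00230).

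Of 17 receptors for matricellular proteins, 8 were higher and 1 lower in IRI vs Control, with a median of log2 0.38. Itga5, the alpha chain of the fibronectin receptor, rose most (log2 2.36 ± 0.36, adjusted p = 3.69e-05), then Cd44, the hyaluronan and osteopontin receptor (log2 2.11 ± 0.30, adjusted p = 2.07e-05). Itga8, the integrin chain of mesangial cells, was lower (log2 -0.59 ± 0.14, adjusted p = 0.00246). Itga5 had mean levels of -2.74 in Control, -0.38 in IRI, -2.77 in IRI+Hemin and -3.04 in IPC+IRI. It had the largest fall of the list both in IPC+IRI vs IRI (log2 -2.66 ± 0.36, adjusted p = 2.94e-05), where 3 were higher and 7 lower (median -0.15), and in IRI+Hemin vs IRI (log2 -2.39 ± 0.36, adjusted p = 6.58e-05), where 2 were higher and 9 lower (median -0.40). Itgb8, an integrin chain that activates TGF-beta, rose most in both, by log2 1.31 ± 0.28 (adjusted p = 0.00131) and 1.46 ± 0.28 (adjusted p = 5.46e-04).

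Of the 16 other members of the CCN, thrombospondin, tenascin and SPARC families, 10 were tested in IRI vs Control and 0 passed, with a median of log2 0.20 and values between -0.40 and 0.73. Against IRI, 0 of 12 were higher and 2 lower in IPC+IRI (median -0.02), and 2 of 12 were higher and 1 lower in IRI+Hemin (median 0.13). Thbs4 was lower than in IRI in IPC+IRI (adjusted p = 0.00630) and in IRI+Hemin (adjusted p = 0.00127). This gene was detected above background on 4 of 4 IRI arrays, 2 of 4 IPC+IRI arrays and 1 of 4 IRI+Hemin arrays, so that these sizes are not given. Comp, another thrombospondin family member, was higher in IRI+Hemin vs IRI (log2 1.03 ± 0.22, adjusted p = 0.00130). Of 14 other matricellular glycoproteins and proteoglycans 2 were higher and 0 lower in IRI vs Control (median -0.02), Tgfbi, a matrix protein induced by TGF-beta (log2 1.70 ± 0.31, adjusted p = 2.11e-04), and Spp1, osteopontin (log2 0.68 ± 0.15, adjusted p = 0.00130). Compared with IRI, 0 of 13 were higher and 2 lower in IPC+IRI (median -0.33), elastin (Eln) most (log2 -1.24 ± 0.19, adjusted p = 8.77e-05). In IRI+Hemin vs IRI (median -0.24) 1 of 14 was higher, decorin (Dcn, log2 1.29 ± 0.43, adjusted p = 0.0220), and 4 were lower, Fbln1 most (log2 -1.05 ± 0.32, adjusted p = 0.0120).

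**Figure D4:**
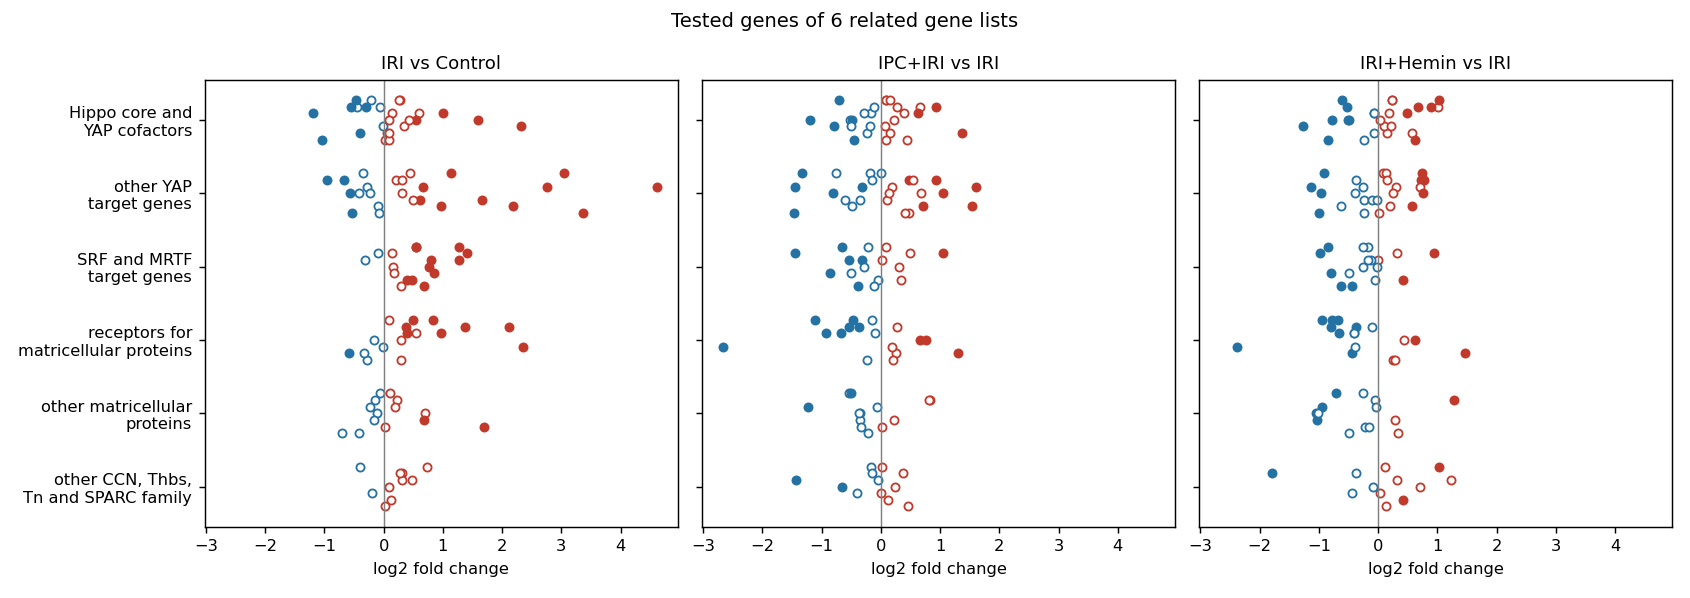
Log2 fold change (horizontal axis) of the tested genes of 6 related lists (rows) in 3 comparisons. Points are genes, filled where they passed an adjusted p of 0.05, red above 0 and blue below, and their height within a row has no meaning. Values of genes not well above background in 1 of the groups, such as Tead4, Vgll1 and Thbs4, are fitted differences and not measured sizes. In IRI vs Control, 11 of 17 SRF and MRTF target genes and 10 of 25 other YAP target genes were higher, and the far left point of the receptors in the other panels is Itga5.

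Markers of other cells differed between the groups too. Their counts stand against the same shares over all genes, with 17% higher and 33.7% lower in IRI vs Control, 23.1% and 32.6% in IPC+IRI vs Control, and 16.4% and 27.8% in IRI+Hemin vs Hemin. The summed level of 8 leukocyte markers, in units of the 75th percentile of the array, ranged from 0.973 to 1.24 in Control, 3.69 to 9.01 in IRI, 3.08 to 11.2 in IRI+Hemin, 6.85 to 20.9 in IPC+IRI and 1.02 to 2.27 in Hemin. In IRI vs Control, 3 of the 7 tested were higher (S100a8, S100a9 and Cd68) and 1 lower (Cd79a), with a median of log2 0.01 and a range from -1.07 to 4.05, so that the sum followed a few markers and not the list as a whole. Against IRI, 2 of 7 were higher and 1 lower in IPC+IRI (median 0.64), and 0 of 7 passed in IRI+Hemin (median 0.09). The sum of 5 platelet markers, cells that store thrombospondin 1, ranged from 0.325 to 0.787 in Control, 0.848 to 1.16 in IRI, 0.722 to 1.03 in IRI+Hemin, 0.738 to 1.34 in IPC+IRI and 0.633 to 0.762 in Hemin. Of the 4 tested, 2 were higher and 0 lower in IRI vs Control (median log2 0.77), 1 was higher and 0 lower in IPC+IRI vs IRI (median 0.25), and 0 passed in IRI+Hemin vs IRI (median -0.41). In IRI vs Control, 1 of 6 endothelial markers was higher and 2 lower, 2 of 5 podocyte markers were lower, and 1 of 7 markers of fibroblasts, pericytes and mesangium was lower. In IPC+IRI vs IRI 4 endothelial markers were lower and 0 higher (17.7% and 26% of all genes), and 1 was lower and 2 higher in IRI+Hemin vs IRI (18% and 26.1% of all genes). Of the markers of fibroblasts, pericytes and mesangium, 2 were higher and 0 lower in the former and 1 was higher and 0 lower in the latter. The part of these cells in the changes of the 10 genes was not tested. Markers of the kidney's own tubules were high on all arrays but differed between groups. The sum of 5 proximal tubule markers ranged from 375 to 416 in Control and 338 to 355 in Hemin. It ranged from 280 to 395 in IRI, 230 to 344 in IRI+Hemin and 253 to 301 in IPC+IRI. The arrays of IRI+Hemin, IPC+IRI and Hemin thus lay below those of Control, and the brightest markers weigh most in such a sum. Of these markers 1 was lower and 0 higher in IRI vs Control, 2 were lower and 0 higher in IPC+IRI vs Control, and 3 were lower and 0 higher in IRI+Hemin vs Hemin. Against IRI, 1 was higher and 2 lower in IPC+IRI, while IRI+Hemin had 2 higher and 1 lower. The part of this difference in the changes of the 10 genes was not tested either. The sum of 4 thick limb and distal tubule markers lay between 200 and 374. In Hemin vs Control, 1 of 5 proximal tubule and 1 of 8 leukocyte markers were lower, 2 of 3 platelet markers were higher, and no other marker passed. Of all genes in that comparison, 18.4% were higher and 17.5% lower.

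Replicate 1 of IPC+IRI was the lowest array of its group for 7 of the 9 tested genes and the highest for the other two, Cyr61 and Amotl2. The same array had the lowest sums of the endothelial (7.93, against 13.6 to 22.3), fibroblast (5.46, against 9.75 to 16.1) and podocyte markers (2.89, against 3.51 to 3.74). Without it, 5 genes were still lower in IPC+IRI vs IRI, with Cyr61 in place of Ctgf, and 6 passed in IPC+IRI vs Control, with Tnc added as higher (log2 1.05, adjusted p = 0.0381). With all arrays Tnc was at log2 0.57 there (adjusted p = 0.303), and it also passed when its probes were averaged after taking log2 (log2 0.99, adjusted p = 0.0302). In IRI, replicate 4 was the highest array for 7 of the 9.

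As a description, the genes whose log2 expression followed each member most closely over the 20 arrays were sought among the 14534 genes that were well above background on all of them. The arrays fall into 5 groups, and differences between groups enter these values. Thbs1 was followed most closely by Itga5 (Pearson r = 0.96), the integrin chain named above, and then by EG433225 and Plekho2 (both 0.96). Ctgf was followed by Ppp2cb, Thbd and Rasip1 (0.95, 0.95 and 0.93), Cyr61 by 9030607L20Rik, Sertad1 and AK087259 (0.94, 0.93 and 0.93), and Ankrd1 by Fgd3, Rin1 and NAP066348-1 (0.96, 0.95 and 0.95). Amotl2 was followed by Rbm38, Nampt and Ptpn21 (0.91, 0.91 and 0.90), Lats2 by Ccdc137, AK081614 and 2610203C20Rik (0.88, 0.87 and 0.86), and Tnc by Stard13, Cirh1a and Sema6d (0.91, 0.88 and 0.88). The closest for Fn1 were Col15a1, Tmsb10 and Lsp1 (0.90, 0.88 and 0.85), and for Sparc, at the lowest values of the 9, Calcrl, Hhex and Zeb1 (0.80, 0.78 and 0.77). Between the best known targets, r was 0.85 for Ctgf and Ankrd1, 0.81 for Cyr61 and Ankrd1 and 0.78 for Ctgf and Cyr61. Within groups, after subtraction of the group means, these became 0.43, -0.24 and -0.02. For Thbs1, r was 0.85 with Tnc and 0.84 with Amotl2, and 0.60 and 0.16 within groups.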

How the data were processed

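Kidney RNA of 20 samples, 4 per group, was labelled with 1 dye (Cy3), and each sample had an Agilent whole mouse genome array. The deposited intensity values are the processed signal that Agilent Feature Extraction 9.5.3.1 gave after background subtraction, with no step between arrays. The authors also deposited a log2 matrix of this signal, used here as an alternative alone. The study's methods average the probes of a gene, drop genes with more than 1 missing value and apply SAM, which was not run here.

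Control spots and spots marked as outliers were left out, replicate spots were averaged to 41174 probes, signals were scaled to the 75th percentile of the array, and the mean over the probes that share a gene name was put on the log2 scale. A gene was tested if no more than 1 of the compared arrays lacked a value and at least 3 of 4 arrays of 1 compared group well above background. The model had 5 group means and 15 residual degrees of freedom (limma 3.58.1, R 4.3.3), and p-values were adjusted by Benjamini-Hochberg within each of 8 comparisons. The fit was also run on simulated data as a check of the code, and no result here rests on that run. Figures were drawn with matplotlib 3.10.9 in Python 3.11.15. Precision is limited by the number of arrays, and probe signals of different genes were not compared.

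The members and the related lists were chosen with earlier results of these data known. All 10 members are described with every probe. From each related list the text names up to 2 genes that rose most and 2 that fell most past the threshold in IRI vs Control, and 1 of each in IPC+IRI vs IRI and in IRI+Hemin vs IRI, and for each member the 3 genes most like it over the arrays. A gene that this rule would name among the other YAP targets is not reported here. Marker genes named were chosen after their values were seen. Of the symbols, Fstl1 stands in 2 related lists and Itga2b in 1 related and 1 marker list. Alternatives were quantile normalization, normexp (offset 50) in place of the scanner's background step, no normalization and a percentile over detected probes alone. Others were all spots kept, the brightest probe, the mean of log2 values, the deposited matrix and the study's fold cutoffs. The rest were an ordinary t-test on the compared arrays, a looser or stricter rule for dim genes and a fit without the arrays of other groups. The replicate number was also used as a block, and each array was left out in turn. The study's methods name a t-test for the validation of single genes and not for calls over all genes. Gene names were kept as the array files give them.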

Additional observations from a re-analysis of the deposited data

Results flagged for a closer look

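In 3 of the 45 sets of 4 arrays (9 genes in 5 groups), 1 array lay far from the other 3 by Dixon's critical value for 4 samples, which chance exceeds in about 1 of 20 sets. Amotl2 in IPC+IRI replicate 1 was at 0.44, against a next value of 0.35, in a group whose arrays otherwise nearly coincided. Amotl2 in IRI+Hemin replicate 4 was at 1.76, against 0.82. Ankrd1 in IRI replicate 4 was at 0.71, against -0.36. All 3 are the highest array of their group.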

How the results depend on the processing

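No call of the 9 genes changed direction under any alternative that was run. Of 32 calls, 17 were kept under all 21 alternatives that could be run for each, among them every call in IRI vs Control and those of Thbs1 against IRI under both maneuvers. The study's fold cutoffs are not among these 21. The rise of Amotl2 in IRI vs Control, 1.80-fold, lies below the study's cutoff of 3-fold there. The number of genes called changed by over 1.5 times as follows. In IPC+IRI vs Hemin, with 5 called, it was 3 with normexp, 3 with only the compared arrays, 2 without normalization and 1 with an ordinary t-test. Without normalization it was 3 in IPC+IRI vs Control (5), 3 in IPC+IRI vs IRI (5) and 2 in IRI+Hemin vs IRI (4). With an ordinary t-test it was 3 in IPC+IRI vs IRI. The study's fold cutoffs left 1 in IPC+IRI vs Control, 2 in IPC+IRI vs IRI and 0 in Hemin vs Control (2). For IRI+Hemin vs IRI the study's results state no cutoff, and 3-fold up or 2-fold down, set here, left 2. In the interaction, with 0 called, 1 was called with only the compared arrays. With single arrays left out, counts ranged from 4 to 6 in IPC+IRI vs Control, from 4 to 5 in both comparisons with IRI, from 0 to 1 in the interaction (1 without IRI replicate 2) and from 3 to 5 in IPC+IRI vs Hemin (3 without IPC+IRI replicate 2 and 3 without Hemin replicate 1). The replicate number as a block ended 1 call, Sparc in IPC+IRI vs Hemin (adjusted p = 0.0547), and changed no other. After subtraction of group means, arrays of the same number in different groups correlated between -0.31 and 0.21 over 40 pairs. The median was -0.018, against -0.004 for arrays of different numbers, so the numbers gave no sign of paired samples. The slide as a random block could not be fitted, since each group lies on its own slide. Of all genes called, 33.5% were higher in IRI vs Control (19.6% to 56.5% over normexp, the deposited matrix and 3 other scalings), 41.5% in IPC+IRI vs Control (33.3% to 75.2%), 59.5% in IPC+IRI vs IRI (49.0% to 90.9%), 59.2% in IRI+Hemin vs IRI (44.9% to 91.5%), 51.2% in Hemin vs Control (35.0% to 94.8%), 37.1% in IRI+Hemin vs Hemin (27.2% to 47.2%), 36.6% in IPC+IRI vs Hemin (23.8% to 49.4%) and 75% in the interaction (64.7% to 89.2%). Without normalization the median of all genes in Hemin vs Control was log2 0.62 in place of 0.06.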
